A study of Saccharomyces cerevisiae with 13 samples.

Results

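The arrays at 50, 60, 110 and 120 min after release of budding yeast from a G1 arrest were compared with the other 8 arrays taken between 10 and 100 min. These 4 arrays are named here the window from mitosis to early G1, and the name is approximate. The 4 window arrays and the 8 others were grouped by their labelled time and make up 12 of the 13 arrays of the series. The labels give minutes and no phase, and the grouping was chosen with earlier results of these data known. The array at 0 min was left out. The cells were of the W303 strain in the SSD1-V background, which carries a working allele of the RNA-binding protein Ssd1. They were grown in YEPD, a rich glucose medium, arrested in G1 by alpha factor, a mating pheromone, and released into YEPD. Every array set cDNA of 1 time point, in Cy5, against cDNA of an asynchronous W303a culture, in Cy3, whose SSD1 allele the sources used here do not give. Both groups therefore shared strain, medium, arrest and reference, and differed in the time of sampling.

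Leaving mitosis depends on the anaphase-promoting complex, which with its activator Cdc20 has securin and mitotic cyclins destroyed, and on a signalling chain that frees the phosphatase Cdc14. The genes of the CLB2 cluster, driven by Mcm1 with the forkhead factor Fkh2 and with Ndd1, are switched on before mitosis, and one of them, SWI5, encodes a factor that turns on early G1 genes once mitosis ends. The factors SBF and MBF then switch on G1 cyclins, cell wall genes and the replication machinery in late G1.

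The deposited values were log ratios, read here as log2 of Cy5 over Cy3, so a value of 1 is a level 2 times that of the reference. Neither the log base nor the direction is stated; the labelled dyes make this direction the likely one, and the opposite would turn every sign. No time point had a replicate. The spread behind every error and p-value is that of arrays at different times within 1 time course, so the tests say nothing of the variation between cultures, and arrays inside each group were not alike by design. Array medians lay between -0.03 and 0.01, and the standard deviation over genes between 0.242 and 0.365. The window arrays correlated with one another at a median Pearson r of 0.737 over genes (6 pairs, from 0.591 to 0.835), the other arrays at 0.594 (28 pairs, from 0.220 to 0.796), and window with other arrays at 0.467 (32 pairs, from 0.228 to 0.85). Genes are not independent replicates, and all arrays share the reference, so these values are descriptions.

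Among 6135 genes, 26 were higher in the window and 40 were lower, or 0.424% and 0.652%. These are genes with an adjusted p under 0.05 in limma, with the cycle as a term, and with a difference of the same sign in both cycles (10 to 60 min and 70 to 120 min). The higher genes included CDC20, KIN3, SPO12, BNS1, PMA1, PHO3, PHO5 and YGP1, and the lower genes included CLN1, CDC21, SLK19, PDS1, BUB1 and MNN1. Differences ran from 0.24 to 1.38 on the log2 scale among the higher genes and from -0.31 to -1.27 among the lower ones, against a median of 0.015 over all genes with quartiles of -0.06 and 0.08. At an unadjusted p under 0.05 there were 585 genes higher and 493 lower. The groups did not overlap, with all 4 window arrays above all 8 others, for 104 genes (1.70%), and with all 4 below for 103 (1.68%). Of the called genes, 21 of 26 and 34 of 40 were among them. The lack of overlap is read from the same arrays as the test, so it is no separate support for the calls. In RNA from a whole culture, a larger share of cells at a stage and more of the transcript per cell cannot be told apart.

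The count of called genes depended on single arrays. It was 0 in both directions without the array of 30, 50, 60, 80, 90 or 120 min. It was 135 higher and 178 lower without 40 min, 61 and 88 without 70 min, 48 and 45 without 10 min, 16 and 27 without 20 min, and 9 and 6 without 110 min. It was also 0 with an estimated correlation between neighbouring arrays (lag-1 value 0.51), where the called genes had limma adjusted p-values from 0.166 to 0.452 and where 235 genes higher and 241 lower had an unadjusted p under 0.05. With arrays at the same position of both cycles paired as a random block, it was again 0 in both directions. The called genes then had limma adjusted p-values from 0.1001 to 0.1463, and 406 genes higher and 386 lower had an unadjusted p under 0.05. Over 1584 values of the 66 called genes under these and the other settings, none changed sign. A call already required the same sign in both cycles, and every setting reused these arrays. The kept signs are therefore no separate support for the calls.

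**Figure D1:**
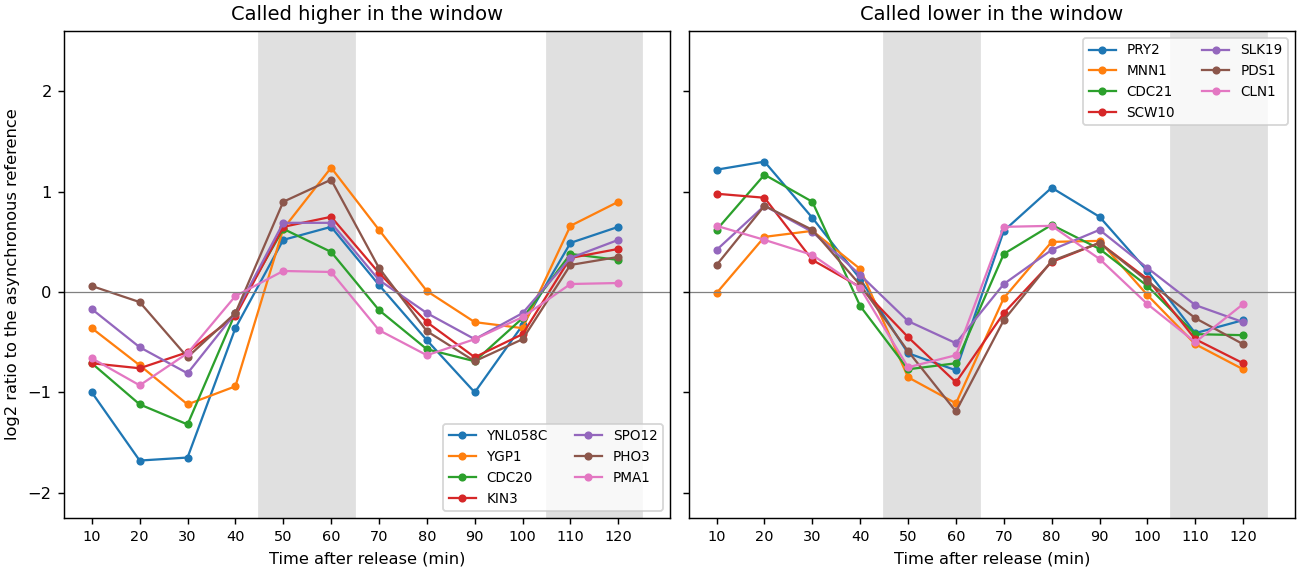
The log2 ratio to the asynchronous reference is plotted against time after release for 7 genes called higher (left) and 7 called lower (right), with 1 point per array and the 4 window arrays shaded in grey. KIN3 reaches 0.34 to 0.75 in the window and at most 0.19 outside it, and MNN1 lies at or below -0.52 in the window and at or above -0.06 outside it.

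CDC20, SPO12 and BNS1, which act in anaphase and mitotic exit, were called higher in the window. CDC20 (YGL116W), the activator of the anaphase-promoting complex, stood at 0.63 and 0.40 at 50 and 60 min and at 0.38 and 0.32 at 110 and 120 min. The other 8 arrays ran from -1.32 to -0.18 with a median of -0.63, so the groups did not overlap. Its difference was 1.07 ± 0.19 (log2, ± standard error, limma adjusted p = 0.0344), or 2.09-fold. SPO12 (YHR152W), a nucleolar protein that helps to release Cdc14 early in anaphase, stood at 0.69, 0.69, 0.34 and 0.52 in the window and between -0.81 and 0.12 elsewhere, again without overlap. Its difference was 0.87 ± 0.14 (limma adjusted p = 0.0344). BNS1 (YGR230W), a paralog of SPO12 with a similar role, stood at 0.33, 0.54, 0.33 and 0.59 in the window. The other arrays ran from -0.38 to 0.35, and the highest of them, at 70 min, was above the window arrays of 50 and 110 min. The BNS1 difference was 0.62 ± 0.11 (limma adjusted p = 0.0344).

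In contrast, 3 genes with roles in the same events were lower. PDS1 (YDR113C), which encodes the securin that holds separase in check until anaphase, stood at -0.59, -1.19, -0.26 and -0.52 in the window, and at -0.28 to 0.86 on the other arrays with a median of 0.29. Only the 110 min array fell inside that range. The difference was -0.95 ± 0.20 (limma adjusted p = 0.0492). SLK19 (YOR195W), a kinetochore and spindle protein that acts with separase, differed by -0.73 ± 0.13, and NUD1 (YOR373W), the spindle pole scaffold of the mitotic exit network, by -0.43 ± 0.09. Of the 19 genes tested from the list of anaphase and mitotic exit genes, 3 were called higher and 3 lower, beside 0.424% and 0.652% of all genes, and the median difference was 0.04. Other members of the exit network were not called: DBF2 (YGR092W), its kinase, had a difference of 0.81 ± 0.20 (limma adjusted p = 0.070) with no overlap, and MOB1, the partner of Dbf2, 0.76 with no overlap. CDC14 (YFR028C), the phosphatase that the network frees, had a difference of 0.04 ± 0.10, with window values of 0.38, 0.25, 0.25 and 0.23 inside the range of the other arrays, -0.02 to 0.56.

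The CLB2 cluster had the highest median difference of the 22 lists. Of its 34 members tested, 5 were called higher (CDC20, KIN3, SPO12, WSC4 and YNL058C) and none lower, 12 had all window arrays above the others, and 33 were positive in both cycles. Of all genes tested, 0.424% were called higher, 1.70% had all window arrays above and 36.1% were positive in both cycles. The median difference was 0.80, beside 0.015 for all genes. KIN3 (YAR018C), a kinase of the NIMA family, stood at 0.65, 0.75, 0.34 and 0.43 in the window and at -0.76 to 0.19 elsewhere, a difference of 0.98 ± 0.16 (limma adjusted p = 0.0344) without overlap. The uncharacterised gene YNL058C had the largest difference of all called genes. It stood at 0.52, 0.65, 0.49 and 0.65 in the window and at -1.68 to 0.07 elsewhere, with a difference of 1.38 ± 0.26 (limma adjusted p = 0.0367), or 2.61-fold. WSC4 (YHL028W), a membrane protein of the Wsc family, differed by 0.81 ± 0.13 (limma adjusted p = 0.0344).

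Other members of the cluster without overlap missed the threshold. CHS2 (YBR038W), the synthase of the chitin in the primary septum, stood at 0.98, 0.79, 0.60 and 0.51 in the window and between -2.03 and 0.36 elsewhere. The window arrays were all above the rest, the difference was 1.53 ± 0.38, and the limma adjusted p was 0.069. HOF1 (YMR032W), a contractile ring protein, had 1.31 ± 0.31 (limma adjusted p = 0.062) and IQG1 (YPL242C), which organises that ring, 0.84 ± 0.19 (limma adjusted p = 0.054), both without overlap. In these genes the other arrays spread widely: HOF1 was at -1.57 at 30 min and at 0.23 at 40 min, next to the window. None of the 24 genes tested from the list of cytokinesis ring and septum genes was called by limma. Of all genes, 0.424% were called higher and 0.652% lower. The list's median difference was 0.01. In 3 of its genes all window arrays were above the others, beside 1.70% of all genes.

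The mitotic cyclin genes were not called. CLB2 (YPR119W) stood at 0.83, 0.40, 0.50 and 0.17 in the window and at 0.80 at 40 min, with the other 7 arrays between -1.14 and 0.29. Its difference of 0.81 ± 0.32 was not called (limma adjusted p = 0.21). CLB1 (YGR108W) stood at 0.51, -0.10, 0.42 and 0.09 in the window and at 0.60 at 40 min. Its difference was 0.67 ± 0.30 and that of the polo kinase gene CDC5 (YMR001C) 0.84 ± 0.34, with limma adjusted p-values of 0.27 and 0.22. SWI5 (YDR146C), the gene of an early G1 factor, had a difference of 0.63 ± 0.23 and was not called. Over both cycles, the level of 25 of the 34 cluster members was highest at the position of 50 min, and of 4 at that of 60 min. Of all 6135 genes, 961 and 1173 were highest at those positions.

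The plasma membrane proton pump and its regulator were also higher. PMA1 (YGL008C), the proton pump that sets the gradient for nutrient uptake, stood at 0.21, 0.20, 0.08 and 0.09 in the window and between -0.93 and -0.04 elsewhere. All window arrays lay above the others, and the difference was 0.64 ± 0.13 (limma adjusted p = 0.0414). PMP1 (YCR024C-A), a proteolipid that regulates the pump, had 0.65 ± 0.12 (limma adjusted p = 0.0344) with no overlap. PMA2, a close copy of PMA1 that may share its signal, had 0.56 ± 0.14 and was not called. Of 20 genes in the list of plasma membrane transport, 2 were called higher, 5 had all window arrays above the others (0.424% and 1.70% of all genes) and the median was 0.02. The amino acid permeases of the list lay near 0: BAP2 at 0.06, TAT2 at 0.02, CAN1 at -0.01, GAP1 at -0.01 and BAP3 at -0.12.

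PHO3 (YBR092C) and PHO5 (YBR093C), neighbouring genes for secreted acid phosphatases, were both higher. PHO3 stood at 0.90, 1.12, 0.27 and 0.35 in the window and between -0.69 and 0.24 elsewhere, and differed by 0.94 ± 0.18 (limma adjusted p = 0.0367). PHO5 stood at 0.75, 0.89, 0.18 and 0.33, with one other array, at 70 min with 0.25, above the lowest of these, and differed by 0.77 ± 0.16 (limma adjusted p = 0.0447). Their sequences are much alike, so spots of one may carry signal of the other. PHM8 (YER037W), a phosphatase induced by phosphate starvation, differed by 0.54 ± 0.10 (limma adjusted p = 0.0344). The other 17 of the 20 genes tested from the list named phosphate regulon here were not called, and the list had a median difference of 0.03. Among all genes, 0.424% were called higher. The phosphate transporter gene PHO84 had a difference of 0.03 and the regulator gene PHO81 0.15.

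YGP1, NCE102 and YRO2 had some of the largest differences of the called genes. YGP1 (YNL160W), a secreted glycoprotein induced when nutrients run short, stood at 0.63, 1.24, 0.66 and 0.90 in the window and at -1.12 to 0.62 elsewhere, its highest other value being at 70 min. Its difference was 1.26 ± 0.23 (limma adjusted p = 0.0365). It was the only gene called among 26 of the list of stress, trehalose and glycogen genes, beside 0.424% of all genes called higher. The median of that list was 0.008. NCE102 (YPR149W), a protein of the eisosome domains of the plasma membrane, differed by 1.10 ± 0.23, without overlap, and YRO2 (YBR054W), a membrane protein of the Hsp30 family, by 1.14 ± 0.24. MRH1 (YDR033W), a paralog of YRO2, had the largest positive difference of any gene tested, 1.58 ± 0.40, but a limma adjusted p of 0.076. Its other arrays ran from -2.73 at 20 min to 0.29 at 70 min, above 3 of its 4 window arrays.

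MTH1, HAP4, IRA1 and RPI1 were among the other higher genes. MTH1 (YDR277C), a repressor of hexose transporter genes, stood at 0.82, 1.19, 0.76 and 0.91 against -0.07 to 0.49, a difference of 0.66 ± 0.11 (limma adjusted p = 0.0344). HAP4 (YKL109W), the activating subunit of the factor that drives respiratory genes, stood at 0.06, 0.22, -0.16 and -0.03 against -0.80 to -0.34, a difference of 0.52 ± 0.09 (limma adjusted p = 0.0344). Neither gene had overlapping groups. None of the 29 genes of the respiration list was called, beside 0.424% of all genes called higher and 0.652% lower. A positive difference was found in 23 of them, beside 3427 of the 6135 genes tested. Their median was 0.10, and 22 were highest at the position of 60 min, beside 1173 of all 6135 genes. None of 25 hexose transport and glycolysis genes was called either, with a median of 0.08. At those shares of all genes, no call in a list of this size is not unusual. IRA1 (YBR140C), which inactivates Ras, differed by 0.32 ± 0.07 (limma adjusted p = 0.048) and RPI1 (YIL119C), an inhibitor of the Ras pathway, by 0.83 ± 0.15 (limma adjusted p = 0.0344).

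The remaining higher genes were TPO4, a polyamine exporter (0.58), ATG42, a vacuolar carboxypeptidase (0.70), RSB1, a lipid transport protein (0.37), OCA2, a protein phosphatase-like protein (0.24), and 4 open reading frames without a described role here, YML119W (1.09), YNL057W (0.90), YKR075C (0.47) and YNR014W (0.29). YNL057W lies beside YNL058C and OCA2 by its systematic name, and signal shared between neighbours was not tested. In all, 12 of the 26 higher genes were in one of the lists and 14 in none.

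**Figure D2:**
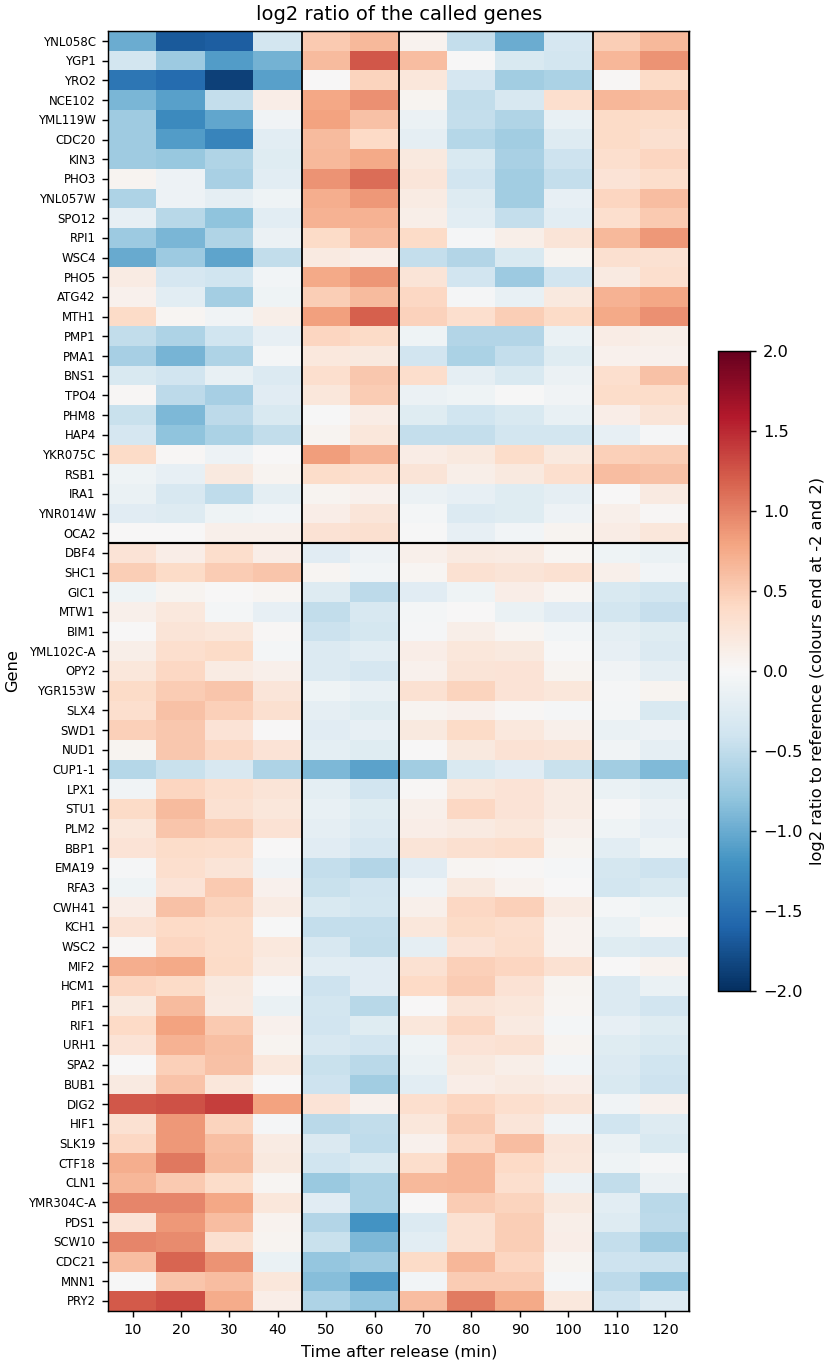
Each of 65 called genes is a line of the colour map and each array a column, coloured by its log2 ratio to the reference (red above 0, blue below 0, colours ending at -2 and 2), with the window columns at 50, 60, 110 and 120 min between black lines and genes ordered by difference. The 26 higher genes are above the horizontal line and 39 of the lower genes below it. In genes such as KIN3 and MNN1 the colours are paler in the second window than in the first, but not in ATG42 or RPI1.

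The genes lower in the window included members of the late G1, replication and spindle lists. MNN1 (YER001W), a Golgi mannosyltransferase and target of SBF, stood at -0.85, -1.11, -0.52 and -0.77 in the window and at -0.06 to 0.61 elsewhere, with a median of 0.37. The groups were far apart, with a difference of -1.10 ± 0.16 (limma adjusted p = 0.0344), or 2.14-fold lower. PRY2 (YKR013W), a secreted sterol-binding protein, stood at -0.61, -0.78, -0.41 and -0.28 against 0.13 to 1.30. It had the largest negative difference of the called genes, -1.27 ± 0.21 (limma adjusted p = 0.0344).

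CLN1 (YMR199W), a G1 cyclin that commits the cell to division, stood at -0.75, -0.63, -0.50 and -0.12 in the window and between -0.12 and 0.66 elsewhere, so the groups touched at 1 value. The difference was -0.89 ± 0.16 (limma adjusted p = 0.0344). Its paralog CLN2 had a difference of -1.35 that was not called (limma adjusted p = 0.0516). HCM1 (YCR065W), a forkhead factor of S phase, differed by -0.54 ± 0.10 and GIC1 (YHR061C), an effector of the polarity switch Cdc42, by -0.35 ± 0.07, both without overlap. Of 24 SBF targets tested, 4 were called lower (CLN1, HCM1, GIC1 and MNN1) and none higher, 21 were negative in both cycles, and the median was -0.53. Of all genes, 0.652% were called lower and 27.6% were negative in both cycles. The cell surface genes TOS6 and SVS1 had differences of -1.56 ± 0.38 and -1.39 ± 0.31 with limma adjusted p-values of 0.062 and 0.054.

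All 34 tested members of the MBF and replication list had a negative difference in both cycles, beside 27.6% of all genes, with a median of -0.73. Called lower were 4 of them, beside 0.652% of all genes. CDC21 (YOR074C), thymidylate synthase, stood at -0.77, -0.71, -0.42 and -0.43 against -0.14 to 1.17, a difference of -1.09 ± 0.21 (limma adjusted p = 0.0367). CTF18, of an alternative clamp loader, differed by -0.74 ± 0.15 and RFA3, the small subunit of replication protein A, by -0.50 ± 0.10. No window array of CDC21, CTF18 or RFA3 reached the level of any other array. RNR1 (YER070W), of the enzyme that makes deoxyribonucleotides, had the largest difference of the list, -1.51 ± 0.41, but its 40 min value of -0.87 lay within the window range of -1.66 to -0.51 and it was not called (limma adjusted p = 0.082). DBF4 (YDR052C), the activator of the kinase that fires replication origins, was outside the list and was called lower with -0.31 ± 0.06.

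BUB1, MIF2, MTW1, STU1, BIM1 and BBP1, which act on chromosomes and the spindle, were lower. BUB1 (YGR188C), a kinase of the spindle checkpoint, stood at -0.42, -0.69, -0.30 and -0.41 against -0.21 to 0.57, a difference of -0.61 ± 0.12 (limma adjusted p = 0.0367). The kinetochore genes MIF2 and MTW1 differed by -0.53 ± 0.11 and -0.38 ± 0.07, the microtubule-binding proteins STU1 and BIM1 by -0.44 ± 0.09 and -0.38 ± 0.07, and the spindle pole gene BBP1 by -0.46 ± 0.08, all without overlap. Of 30 genes in the list of S/G2 spindle genes, BIM1 was the one called, beside 0.652% of all genes called lower. In that list 24 were negative in both cycles, beside 27.6% of all genes, and the median was -0.23. BUB1, MIF2, MTW1, STU1 and BBP1 are in no list and were picked after their values were seen. The same holds for SPA2 (-0.59), a polarity scaffold, HIF1 (-0.73), a histone chaperone, PIF1 (-0.57), a DNA helicase, RIF1 (-0.58), a telomere protein, SLX4 (-0.42), a nuclease scaffold, and WSC2 (-0.53), a cell wall sensor. The other 12 lower genes, DIG2, URH1, KCH1, CWH41, EMA19, PLM2, LPX1, SWD1, YGR153W, OPY2, YML102C-A and SHC1, had differences between -0.67 and -0.35.

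SCW10 (YMR305C), a cell wall protein like glucanases, differed by -1.01 ± 0.19 (limma adjusted p = 0.0367). It was the one gene called among 16 mRNAs known to associate with Ssd1, beside 0.652% of all genes called lower. The median difference of the 16 was -0.01. YMR304C-A, next to SCW10 by its systematic name, had -0.91 ± 0.16. SSD1 itself (YDR293C) had a difference of 0.11 ± 0.08, with window values between -0.10 and 0 inside the range of the others. CUP1-1 (YHR053C), which encodes the copper-binding metallothionein and has a near-identical copy, differed by -0.44 ± 0.09.

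Core histone genes were low in the window and low again at 10 and 70 min. HTA1 (YDR225W), of histone H2A, stood at -1.53, -2.31, -0.63 and -1.22 in the window, at -1.88 and -1.75 at 10 and 70 min, and at 0.57 and 0.35 at 30 and 90 min. Its difference was -1.06 ± 0.47 (limma adjusted p = 0.27), and 3 of its 4 window arrays lay within the range of the others. All 8 histone genes had a negative difference in both cycles, beside 27.6% of all genes, with a median of -0.99. None was called, beside 0.652% of all genes called lower. Set against 30, 40, 90 and 100 min alone, the list's median was -1.44, and against 10, 20, 70 and 80 min it was -0.53. Pairs of histone genes are near-identical and their spots may share signal.

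**Figure D3:**
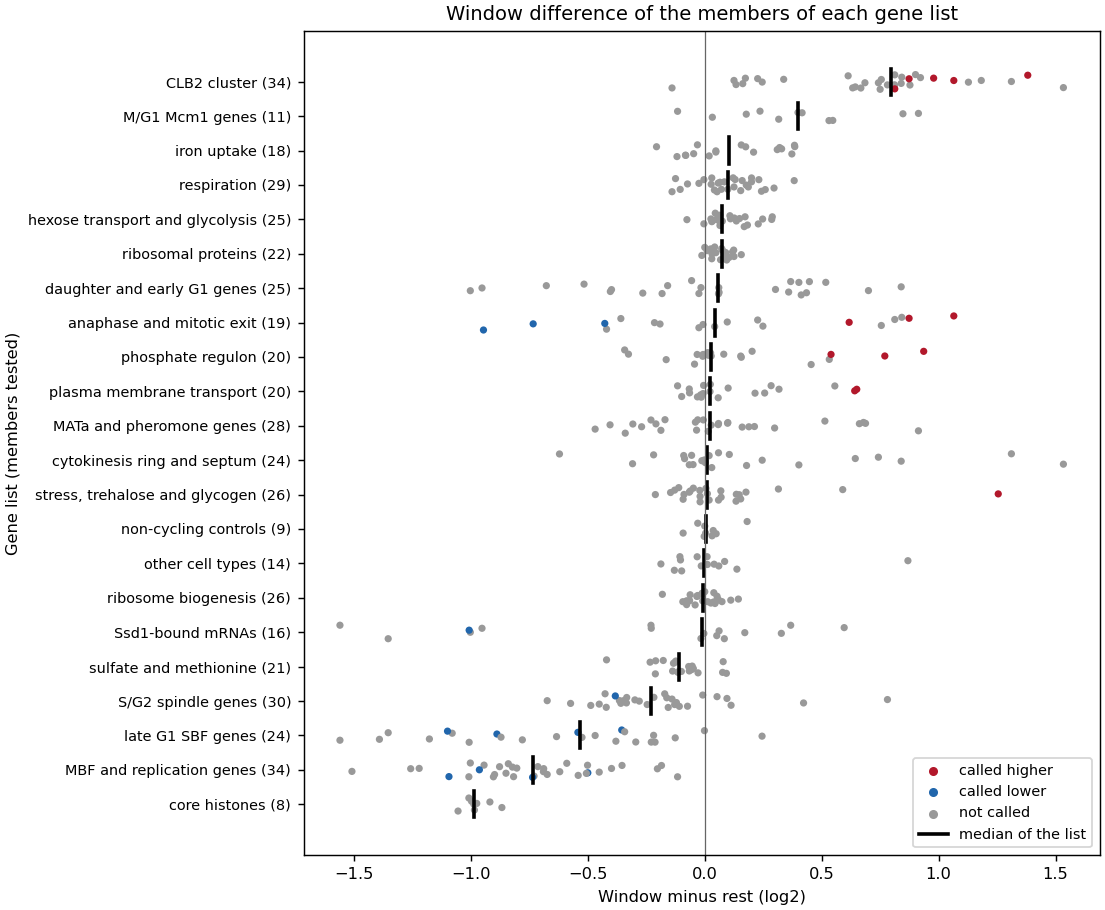
Each point is 1 gene of a list (22 lists, number of genes tested in brackets), placed by its window minus rest difference on the log2 scale, with genes called higher in red, genes called lower in blue, other genes in grey, and a black bar at the list's median. The CLB2 cluster lies to the right with a median of 0.80, the MBF, SBF and histone lists lie to the left, and all other medians but those of the M/G1 and S/G2 spindle lists lie between -0.11 and 0.10.

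Early G1 genes stood lower on the earlier than on the later arrays of the window. In the list of 25 genes of cell separation and early G1, the median log2 ratio was -1.34 on the 50 min array and -0.15 on the 60 min array, and -0.89 and -0.05 on those of 110 and 120 min. It was highest at 70 min, with 0.55. No member was called by limma in either direction, beside 0.424% of all genes called higher and 0.652% lower. The list's median difference was 0.38 over 10 to 60 min and -0.30 over 70 to 120 min. EGT2 (YNL327W), of cell separation, stood at -2.87 at 50 min, -0.23 at 60 min and 0.55 at 70 min, and at -1.81 and -0.07 at 110 and 120 min. SIC1 (YLR079W), the inhibitor of the S phase cyclin kinase, stood at -1.01, 0.76 and 0.69 at 50, 60 and 70 min, and at -0.56 and 0.32 at 110 and 120 min. ASH1 (YKL185W), the repressor of mating type switching in daughter cells, stood at -1.39, 0.98 and 0.68 at 50, 60 and 70 min. In these 3 genes the later window array was the high one in both cycles, and the window differences were 0.36 ± 0.55, 0.30 ± 0.34 and 0.70 ± 0.47.

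Other genes of cell separation were low across the window and higher after the first window, at 70 and 80 min. CTS1 (YLR286C), the chitinase that parts mother and daughter, stood at -2.56, -2.09, -1.32 and -1.19 in the window, and at -0.34 and -0.16 at 70 and 80 min. DSE2 (YHR143W), a glucanase made in daughters, likewise stood at -2.31, -2.35, -1.18 and -1.29 in the window and at -0.25 and 0.21 at 70 and 80 min. Before the first window, at 0 and 10 min, CTS1 stood at 0.73 and 0.19 and DSE2 at 0.64 and 0.18. No array followed the second window, so the rise was seen in 1 passage. Neither was called, and the difference of CTS1 was -0.95 ± 0.38. Over both cycles, 11 of the 25 genes were highest at the position of 60 min and 11 at that of 10 min. Of all 6135 genes, 1173 and 1078 were highest at those positions.

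The M/G1 genes driven by Mcm1, which include the replicative helicase subunits, spanned the same boundary. Their 11 tested members had a median difference of 0.40, and none was called by limma, beside 0.424% of all genes called higher. Positive in both cycles were 10 of them, beside 36.1% of all genes. SWI4, the last member of the list, was not analysed here. MCM7 (YBR202W), a helicase subunit, stood at 0.35, 0.75, 0.02 and 0.30 in the window and at 0.54 and 0.36 at 10 and 70 min, with a difference of 0.85 ± 0.33. CLN3 (YAL040C), the cyclin that starts the G1 programme, had 0.53 ± 0.22, FAR1 (YJL157C), which blocks G1 cyclin kinase, 0.91 ± 0.28, and CDC6 (YJL194W), which loads the helicase at origins, 0.18 ± 0.24. Set against 30, 40, 90 and 100 min, the list's median was 0.65, and against 10, 20, 70 and 80 min it was 0.02.

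No gene passed the test of the later against the earlier window arrays, 60 and 120 against 50 and 110 min (0% of 6135 genes in each direction, limma). At an unadjusted p under 0.05, 177 genes were higher on the later arrays and 153 on the earlier, and the smallest adjusted p was 0.37. The median of later minus earlier was 0.92 in the list of daughter and early G1 genes, 0.35 in the M/G1 list and -0.23 in the CLB2 cluster, beside -0.01 over all genes.

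More genes were called against the arrays named late G1 here than against those named S/G2. These names and that of the window are approximate. The daughter and early G1 list was highest at 70 min, with a median of 0.55, and the CLB2 cluster had a median of 0.53 at 40 min. Against 10, 20, 70 and 80 min, 300 genes were higher and 383 lower in the window (4.89% and 6.24% of 6135, limma). Against 30, 40, 90 and 100 min, the S/G2 arrays, 4 were higher and 1 lower (0.0652% and 0.0163%), at limma adjusted p under 0.05 in each contrast. At an unadjusted p under 0.05 the counts lay closer, 935 and 735 in the first contrast and 615 and 569 in the second. Several called genes narrowly missed the threshold against the S/G2 arrays, CDC20 and KIN3 among them (limma adjusted p = 0.0659). All 66 genes called against the rest were past the threshold in the first contrast. Above both sets of arrays were 3 genes, YGP1, PHO3 and SPO12 (0.0489%), and below both was MNN1 (0.0163%). YGP1 differed from the late G1 arrays by 0.97 and from the S/G2 arrays by 1.54, PHO3 by 0.71 and 1.17, SPO12 by 0.76 and 0.98, and MNN1 by -1.06 and -1.14. None of the 4 held with an estimated correlation between neighbouring arrays, with limma adjusted p-values of 0.077, 0.087, 0.178 and 0.255 for YGP1, PHO3, SPO12 and MNN1, nor without the cycle term. With positions paired as a random block, YGP1 and PHO3 held (limma adjusted p = 0.0426) and SPO12 and MNN1 did not (0.0629). The 300 and 383 genes against late G1 became 48 and 134 with the estimated correlation and 223 and 332 with the block. In the CLB2 cluster, 30 of 34 genes were higher than on the late G1 arrays, with a median difference of 1.07, while the median against the S/G2 arrays was 0.37. In the MBF list, 33 of 34 genes were lower than on the late G1 arrays, with a median of -1.09, against -0.42 for the S/G2 arrays. The lists were drawn from the known timing of these genes, so their direction is not independent evidence.

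**Figure D4:**
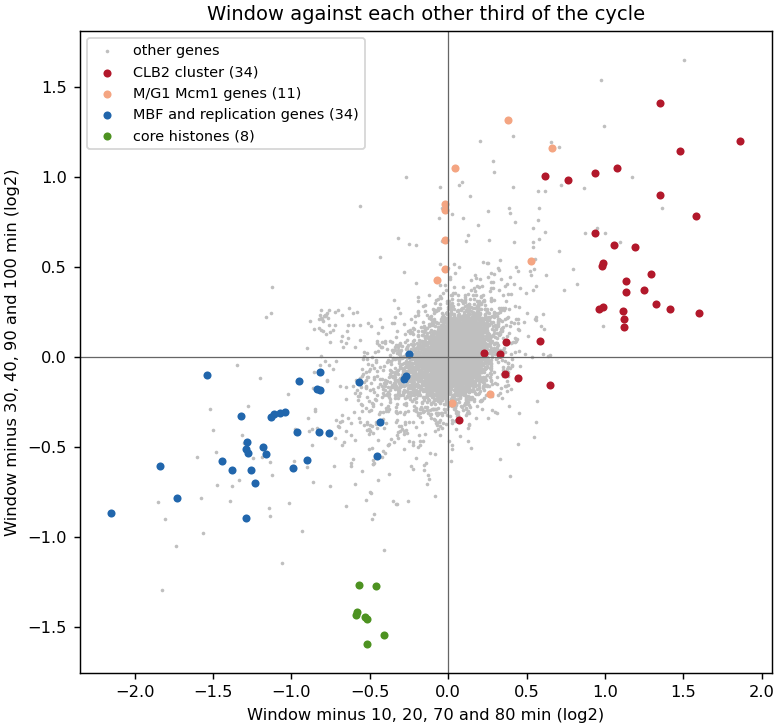
Each point is 1 of 6135 genes, placed by its window difference from the late G1 arrays (10, 20, 70 and 80 min, horizontal axis) and from the S/G2 arrays (30, 40, 90 and 100 min, vertical axis), both on the log2 scale. The CLB2 cluster (red) spreads to the right with a median of 1.07, the MBF list (blue) to the left with -1.09, and the histones (green) lie lowest with -1.44 on the vertical axis.

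The window difference was larger in the first cycle for nearly all called genes. It was larger for 25 of the 26 higher genes, with medians of 0.93 and 0.57 in the first and second cycle, and for 40 of 40 lower genes, with medians of -0.67 and -0.37. RSB1 was the exception, with 0.35 and 0.38. YRO2 had 1.71 and 0.57, YGP1 1.72 and 0.79, CDC20 1.35 and 0.78, and PDS1 -1.34 and -0.55. The arrays of the first cycle also spread more over all genes. Their standard deviations were 0.283 to 0.365, beside 0.242 to 0.280 in the second cycle. The share of all genes with a larger first difference was not counted, so the pattern may not be particular to the called genes. The difference between the cycles passed the test for none of 6134 genes (0%, limma), 273 had an unadjusted p under 0.05, and the smallest adjusted p was 0.998. Across all genes, 3904 of 6135 (63.6%) had the same sign in both cycles, 2212 positive and 1692 negative.

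**Figure D5:**
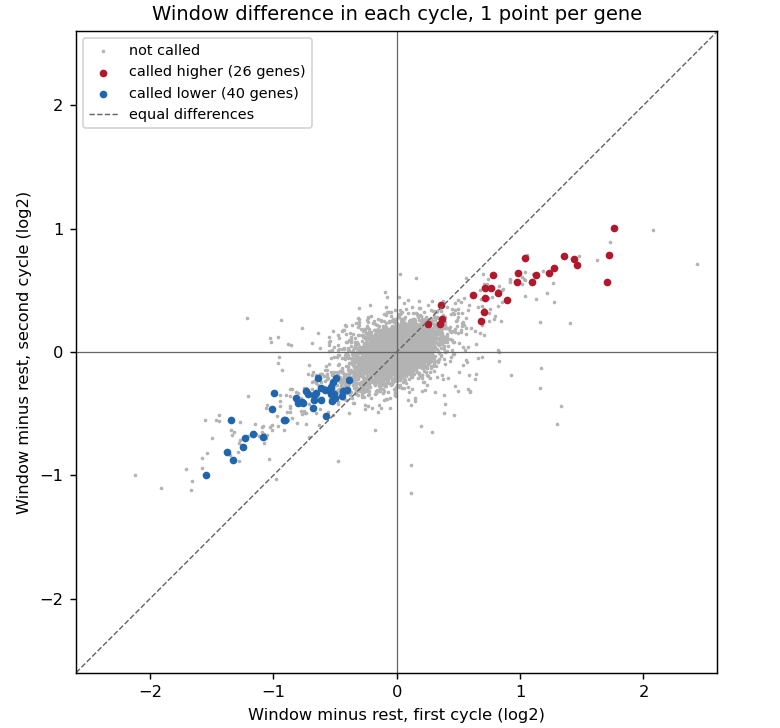
Each point is 1 gene, placed by its window minus rest difference in the first cycle (horizontal axis) and in the second (vertical axis), on the log2 scale, with genes called higher in red, genes called lower in blue and a dashed line where both differences are equal. Called genes lie in the upper right and lower left, and all but RSB1 lie closer to the horizontal axis than the dashed line does.

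Lists outside the cell cycle showed small differences. The 22 ribosomal protein genes had a median of 0.07. Of them, 21 were positive but only 8 were positive in both cycles, beside 36.1% of all genes. The 26 ribosome biogenesis genes had a median of -0.009. The 21 sulfate and methionine genes had a median of -0.11, -0.29 and 0.12 in the first and second cycle. Of these, 18 were highest at the position of 40 min, beside 980 of all 6135 genes. The 18 iron uptake genes had 0.10 and the 9 non-cycling control genes 0.004. None of the genes in these 5 lists was called by limma, beside 0.424% of all genes called higher and 0.652% lower. With arrays scaled to the same spread, all list medians except that of the MATa and pheromone genes kept their sign, and the median of all genes moved from 0.015 to 0.005.

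MATa genes, on which an arrest by alpha factor depends, stood above the reference at 0 min, STE2 at 1.07 and BAR1 at 1.96. A ratio to a reference of the same kind of cell does not give their level. In the window comparison STE2, the receptor of alpha factor, had a difference of 0.69 ± 0.28 and STE6, the exporter of a-factor, 0.68 ± 0.22. Of 28 MATa and pheromone genes none was called, beside 0.424% of all genes called higher and 0.652% lower. Their median was 0.02, or -0.01 with arrays scaled. The 14 markers of MATalpha cells, meiosis and sporulation were not called either. Their mean log2 ratio lay between -0.08 and 0.05 in the window and between -0.11 and 0.07 elsewhere. One of them, the sporulation gene SPS4 (YOR313C), stood at 0.62, 0.37, 0.47 and 0.38 against -1.33 to -0.03, with a difference of 0.87 ± 0.20 (limma adjusted p = 0.054). By systematic name it lies beside YOR314W, with 0.84, and SFG1, a CLB2 cluster gene with 1.18, and signal shared between these neighbours was not tested.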

How the data were processed

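Per the labels' protocols, total RNA of each time point was labelled with Cy5 and RNA of an asynchronous W303a culture with Cy3, with no dye swap. The authors deposited 1 log ratio per open reading frame and array; its log base and direction, the scanner, background correction, normalization and signal over background are not given in the sources used. The values were read as log2 of Cy5 over Cy3 and used as deposited. No slide or scan batch is given.

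The table had 6295 entries: 108 were empty and 20 had no readable name. Genes were named through RefSeq's table for assembly R64, with 5768 matched by locus tag, 49 by synonym and 458 left under their own name. Entries of the same gene were averaged for 27 genes (median correlation 0.617). Of 6140 genes, 6135 with values on at least 10 of 12 arrays were tested.

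Tests used limma 3.58.1 in R 4.3.3 (lmFit and eBayes), with Benjamini-Hochberg adjustment over all genes: the window with the cycle as a term, its interaction with the cycle, contrasts with 10, 20, 70 and 80 min and with 30, 40, 90 and 100 min, and the later against the earlier window arrays. Scripts were tested on simulated data. The members, 22 gene lists, tests and naming rule (the 10 largest and 5 smallest p in each direction, 3 called members per list and a list of regulators) were chosen with earlier results of these data known. Other genes named, the count of groups that do not overlap and the pairing of positions were chosen after their values were seen. Alternatives covered the cycle term, correlation between neighbouring arrays, arrays at the same position of both cycles as a random block (duplicateCorrelation), array scale, genes tested, the arrays of the rest, each cycle alone, the call and each array left out. Promoter motifs were not used here, and a few genes in the counts are not reported by name. Plots used matplotlib 3.10.9 (Python 3.11.15).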

Additional observations from a re-analysis of the deposited data

Results flagged for a closer look

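CDC14 (YFR028C) stood at 0.38 on the 50 min array, above the other 3 window arrays at 0.23 to 0.25, and the gap was 0.867 of the whole range of the 4 arrays. Among the 45 genes named by rule, 90 groups of arrays were looked at in this way and 1 stood out; chance alone gives about 1 in 20. The arrays of a group were taken at different times.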

How the results depend on the processing

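Counts of genes higher and lower in the window depended on most choices. The 66 called genes kept their sign under every setting run. Their selection by the same sign in both cycles made this likely in advance. With the 26 and 40 called as the base, the counts were 0 and 0 with a linear time term (384 and 375 genes at an unadjusted p under 0.05), with an estimated correlation between neighbouring arrays (235 and 241), with positions paired as a random block (406 and 386), in the first cycle alone (304 and 343), in the second alone (403 and 327) and at an adjusted p under 0.01. They were 72 and 117 with arrays scaled to the same spread, 164 and 239 without 40, 70 and 100 min, and 104 and 103 when counting groups that do not overlap. Leaving out 1 array at a time gave 0 to 135 higher and 0 to 178 lower. Without the cycle term (22 and 42), without the requirement of the same sign, on genes complete on 12 arrays or without genes of several entries, the counts stayed within 1.5 times. Genes above and below both the late G1 and the S/G2 arrays numbered 0 and 0 without the cycle term or with the estimated correlation, 2 and 0 with linear time or with the block, 31 and 48 with scaled arrays, and 0 to 20 and 0 to 34 with 1 array left out. Against the late G1 arrays the counts were 170 higher with linear time, 48 and 134 with the estimated correlation, and 93 to 324 and 194 to 390 with 1 array left out. Against the S/G2 arrays they were 0 and 0 without the cycle term or with the estimated correlation, 2 and 0 with linear time, 3 and 0 with the block, 64 and 77 with scaled arrays, and 0 to 79 and 0 to 107 with 1 array left out. Tests of the difference between cycles and of later against earlier window arrays gave 0 under every setting run. The cause was not tested. The replicate numbers follow the order of time and pair no arrays. The paired fit, added after the data were seen, took arrays at the same position of both cycles as a random replicate block (estimated correlation 0.286). The signal over background is not given, so what dim spots limit is unknown. Motifs in promoters were planned and not run.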

Other observations

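The 0 min array, outside every comparison, shows where the called genes stood in the arrest. Of the 40 genes lower in the window, 26 were below all 8 other arrays at 0 min and 4 above all of them, with a median of -0.26. MNN1 stood at -1.52, CLN1 at -1.67 and CDC21 at -1.11, while PRY2 stood at 1.24, SCW10 at 1.35 and DIG2 at 1.23. Of the 26 genes higher in the window, 5 were above all 8 other arrays at 0 min and 2 below, again with a median of -0.26. The share of all genes outside those arrays at 0 min was not counted, so whether these counts are unusual is not known. The 0 min array had the widest spread over genes, with a standard deviation of 0.387. SPO12 stood at 0.66, NCE102 at -1.26 and YRO2 at -1.70.

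In 25 of the 6135 genes the window arrays were above all others within the first cycle and below all others within the second. In 18 genes it was the reverse. How many genes would do so by the order of the arrays alone was not worked out, so the genes named are examples only. SUN4, a cell wall gene of the daughter list, had differences of 0.39 and -0.42, HSP104, a disaggregase, -0.32 and 0.28, and SAM2, a synthase of S-adenosylmethionine, -0.33 and 0.23. Above the others within each cycle separately were 195 genes, and below 172. The difference between the cycles passed the limma test for none of these.

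Some called genes lie next to each other: PHO3 and PHO5, ATG42 and IRA1, and YNL058C, YNL057W and OCA2 among the higher genes, and SPA2 and HIF1, and SCW10 and YMR304C-A, among the lower. The annotation shows no overlap for PHO3 and PHO5, ATG42 and IRA1, and SPA2 and HIF1, and the other pairs could not be placed.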
